A study of Mus musculus with 12 samples.

Results

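The genes described here are 10 imprinted growth regulators, taken by symbol from the count tables and the FPKM table of differentiating adherent neural stem (ANS) cells. They are Igf2, H19, Dlk1, Meg3, Cdkn1c, Peg3, Plagl1, Ndn, Mest and Grb10, and they make up 10 of the 22609 genes counted. All 10 also have an entry among the 34993 of the FPKM table (fragments scaled to transcript length and library depth). RNA was sequenced from mouse ANS cells derived from E14.5 embryos that were grown in vitro and led to become GABAergic neurons, to follow the transcriptome along that path. T0 (3 libraries) was proliferating cells in growth medium, Euromed-N with N2, 20 ng/ml FGF2 and 20 ng/ml EGF. T1 (3 libraries) was cells 2 days after the change to medium D1, which holds N2, B27, 10 ng/ml FGF2 and 2 ng/ml EGF. T2 (4 libraries) was cells 2 days into medium B, a DMEM/F12 and Neurobasal mix on laminin with N2, B27, 10 ng/ml FGF2 and 20 ng/ml BDNF and no EGF listed. T3 (2 libraries) was cells kept for 10 days in medium B, which the labels call GAD-positive. The N2 supplement, present at every time point, contains insulin. The cells are one stem cell model in culture, with no tissue around them. The FPKM columns of all samples have names that begin with wt, read here as wild type, and the labels name no genetic change.

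Imprinted genes are transcribed mainly from 1 parental copy, and the choice of copy is kept by DNA methylation that is set in the germ line and copied at each cell division. Many of the paternally expressed ones promote growth of the embryo and many of the maternally expressed ones restrain it. Igf2 is a secreted growth factor, and H19 is the noncoding RNA transcribed from the other parental copy next to it. Dlk1 and Meg3 form a similar pair of a membrane-bound ligand and a noncoding RNA. Cdkn1c encodes the cyclin-dependent kinase inhibitor p57, Grb10 an adaptor that binds and restrains the insulin and IGF receptors, Plagl1 and Peg3 zinc finger proteins, Ndn the MAGE family protein necdin, and Mest a protein of the alpha/beta hydrolase fold. In embryonic brain several of them are known for high levels in neural progenitors or young neurons. The counts sum the reads of both parental copies, so the imprint itself was not measured.

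Read counts on genes ranged from 8910724 to 16631614 per library, with a median of 12601169. Levels are given below as counts, as CPM (counts scaled to the library total after TMM scaling over the 12 libraries) or as FPKM, and only FPKM was used to compare one gene with another. A gene without a read in a library could still have had up to 3 counts, 0.180 to 0.337 CPM depending on the library, and this limit covers counting error only. The labels call the samples biological replicates without saying how cultures were kept apart, so p-values measure the spread between these samples. T0 replicate 3 stood apart: its chi-square distance per gene to T0 replicates 1 and 2 was 96.4 and 99.9, against 3.17 between replicates 1 and 2, 5.13 to 22.5 within T1, 7.30 to 21.8 within T2 and 32.4 between the libraries of T3. Results that rest on it are given with and without it. Neural progenitor markers (Nes, Sox2, Fabp7, Vim, Pax6, Hes5) were counted at every time point, with a summed level of 4963 to 7431 CPM. Neuron markers rose from 893 to 965 CPM at T0 to 2060 to 2609 at T1, 2032 to 2589 at T2 and 1696 to 2725 at T3, although Gad2 and Stmn2, which are among their 8 markers, stayed at no more than 3 counts in every library. Microglial markers summed to at most 0.278 CPM. In RNA from whole cultures, fewer cells of a type and less RNA per cell cannot be told apart.

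The 10 genes fell into 4 with more than 3 counts in some library and 6 with no more than 3 in any. Mest, Peg3 and Grb10 reached at least 1069 counts in some library, and Igf2 reached 25. H19, Meg3, Cdkn1c, Dlk1 and Ndn had 10, 5, 4, 2 and 1 counts over all 12 libraries together, and Plagl1 had 0. The plot of counts by gene shows the gap between these groups.

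**Figure D1:**
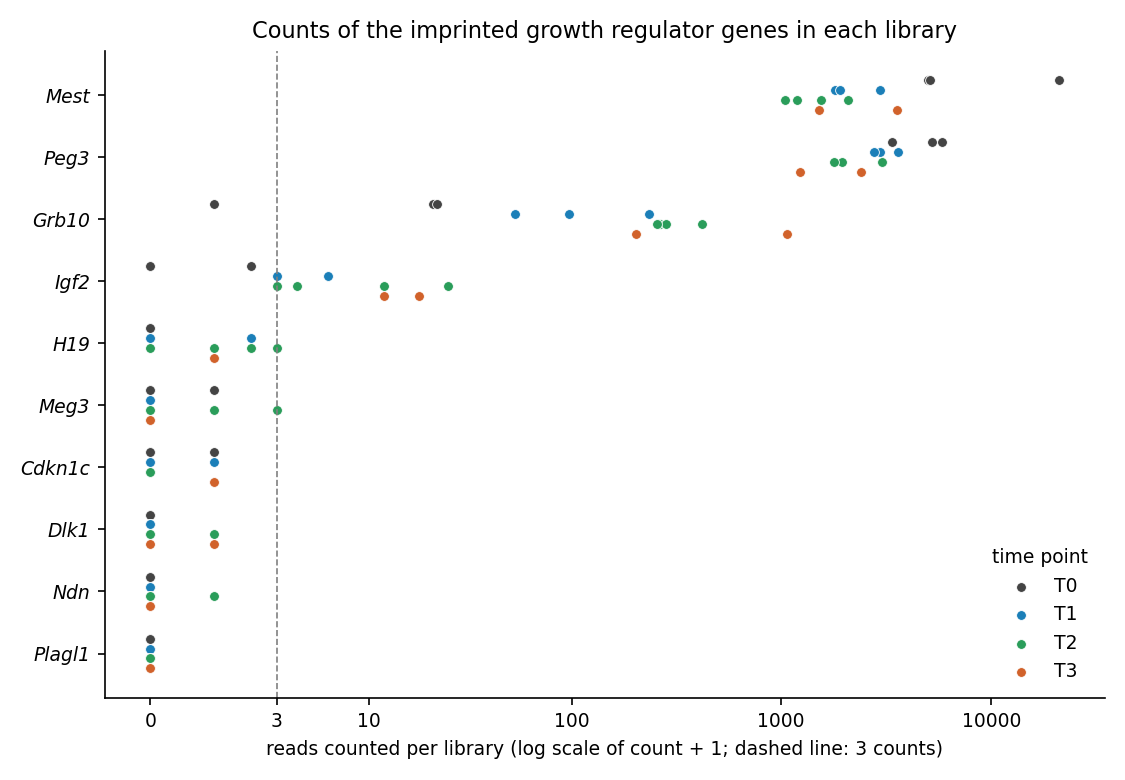
Reads counted on each of the 10 genes (rows) in each of the 12 libraries (points, coloured by time point; points may overlap), on a log scale of count + 1. Mest and Peg3 lie at 1046 counts or more in every library, Grb10 and Igf2 move to the right from T0 onward, and the other 6 genes do not pass the dashed line at 3 counts.

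The sequences before the starts of the 3 genes with most reads are shown because the methylation that marks the silent copy of such genes is placed on CpG dinucleotides. RefSeq starts of build GRCm38.p6 were available for 8 of the 10 genes (15 starts). H19 and Cdkn1c had no entry. Each line holds the 250 bases before a start, 5′ to 3′ on the strand of the gene, with every CG in capitals. The Peg3 start lies at chr7:6730420-6730669 (minus strand) with 8 CG, the upstream and downstream Mest starts at chr6:30733256-30733505 with 7 CG and chr6:30737800-30738049 with 14 CG (both plus strand), and the upstream and downstream Grb10 starts at chr11:12037421-12037670 with 40 CG and chr11:12027972-12028221 with 8 CG (both minus strand). The median of all 32817 RefSeq starts was 6 CG, and 98.7% of them had fewer CG than the upstream Grb10 start. The bases after that start were not found in the annotated protein-coding transcripts of Grb10, unlike those after the other starts shown. A further Mest start, not shown, nearly coincides with the downstream one. Methylation was not measured in these cells, and the count per gene sums all starts of that gene.
Peg3: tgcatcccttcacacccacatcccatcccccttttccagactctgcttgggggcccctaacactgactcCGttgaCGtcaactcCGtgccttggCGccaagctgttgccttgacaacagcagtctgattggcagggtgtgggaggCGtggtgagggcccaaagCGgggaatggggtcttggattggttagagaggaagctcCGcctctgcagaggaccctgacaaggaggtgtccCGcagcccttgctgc
Mest upstream: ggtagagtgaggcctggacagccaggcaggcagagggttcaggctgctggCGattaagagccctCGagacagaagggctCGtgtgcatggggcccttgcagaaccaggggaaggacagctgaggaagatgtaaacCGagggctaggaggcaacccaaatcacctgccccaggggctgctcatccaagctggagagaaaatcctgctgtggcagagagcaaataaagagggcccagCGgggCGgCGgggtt
Mest downstream: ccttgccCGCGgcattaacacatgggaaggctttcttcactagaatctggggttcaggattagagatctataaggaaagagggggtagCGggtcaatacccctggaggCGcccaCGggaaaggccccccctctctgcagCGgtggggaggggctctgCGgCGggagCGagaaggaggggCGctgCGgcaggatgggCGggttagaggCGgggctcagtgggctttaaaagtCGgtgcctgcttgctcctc
Grb10 upstream: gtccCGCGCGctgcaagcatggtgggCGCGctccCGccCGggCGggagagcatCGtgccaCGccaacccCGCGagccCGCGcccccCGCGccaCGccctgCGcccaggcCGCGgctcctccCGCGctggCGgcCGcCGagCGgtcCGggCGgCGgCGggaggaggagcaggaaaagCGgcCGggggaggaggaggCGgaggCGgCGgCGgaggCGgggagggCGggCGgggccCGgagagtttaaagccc
Grb10 downstream: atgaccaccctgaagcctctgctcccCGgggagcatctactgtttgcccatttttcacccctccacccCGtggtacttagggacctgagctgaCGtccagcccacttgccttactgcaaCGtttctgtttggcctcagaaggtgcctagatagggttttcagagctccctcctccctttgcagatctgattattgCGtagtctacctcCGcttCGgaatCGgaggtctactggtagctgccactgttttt

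Peg3, Mest and Grb10 passed the filter on low counts in all 5 comparisons of time points. Igf2 passed it in the comparisons of T3 with T0 and with T2, which it entered through the counts of later time points, and the other 6 genes passed it nowhere. Against T0, edgeR called 1 of the 3 genes tested lower and 1 higher at T1, 2 lower and 1 higher at T2, and 0 of 4 lower and 1 higher at T3, all at an adjusted p under 0.05. The background was high at T1 and T2: at T1 16.8% of the 12364 genes tested were lower and 15.1% higher, at T2 21.8% of 12607 were lower and 21.4% higher. At T3 1.41% of 12721 genes were lower and 3.31% higher. Over all genes, the log2 fold change against T0 had a median of -0.01, 0.00 and -0.01 at T1, T2 and T3, and over Peg3, Mest and Grb10 it was -0.59 at T1 and -0.75 at T2, in each case the value of Peg3. No median is given for T3, where Igf2 entered through its T3 counts. Of the 4 tested at T3, 3 had an unadjusted p under 0.05, and DESeq2 called Peg3 lower and Grb10 and Igf2 higher. The Igf2 result is not used as support. With 3 or 4 genes, these counts are read gene by gene and not as a share. The share of all genes whose libraries did not overlap between time points was not counted. Statements below that all libraries of a time point lay above or below those of another are descriptions only.

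Grb10 was higher than at T0 at each of T1, T2 and T3, and its changes between those later time points did not pass the test. Its product sits on the cytoplasmic side of the insulin and IGF1 receptors and limits their signalling, and in mouse the copy inherited from the mother is the active one in most tissues while neurons use the paternal one. It lies at chr11:11830511-11938686 of NCBIM37 (mm9) on the minus strand, with up to 18 exons in a transcript. Its counts were 21, 22 and 1 in T0 replicates 1 to 3, and 97, 234 and 53 in T1 replicates 1 to 3. They were 265, 281, 255 and 421 in T2 replicates 1 to 4, and 1069 and 203 in T3 replicates 1 and 4. Every T1, T2 and T3 library lay above every T0 library, and every T2 library above every T1 library in CPM, whereas the T3 libraries lay on both sides of T2. Mean levels were 1.06 ± 0.857, 9.69 ± 7.22, 25.1 ± 1.30 and 55.7 ± 47.9 CPM at T0, T1, T2 and T3 (SD over 3, 3, 4 and 2 libraries).

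The edgeR log2 fold changes of Grb10 against T0 were 3.18 at T1 (SE 0.89, adjusted p = 0.0338), 4.58 at T2 (SE 0.54, adjusted p = 0.000355) and 5.72 at T3 (SE 0.97, adjusted p = 0.0373). Without T0 replicate 3, which held 1 read of Grb10, they were 2.61, 4.02 and 5.18 (adjusted p = 0.0123, 4.56e-07 and 0.0206), against a T0 level of 1.56 ± 0.0286 CPM (SD, n = 2). The T2 call was kept in all 17 alternative analyses. The T1 call was lost in edgeR without T0 replicate 1 (adjusted p = 0.0562), T0 replicate 2 (0.0590), T1 replicate 1 (0.0889) or T1 replicate 2 (0.129), and in limma on log2(FPKM + 1) (0.121). The T3 call was lost without T0 replicate 1 (0.102), T0 replicate 2 (0.115), T3 replicate 1 (0.287) or T3 replicate 4 (0.0819), and in limma on log2(FPKM + 1) (0.0986). The summed neuron markers were at most 965 CPM at T0 and at least 1696 CPM afterwards, with ranges that overlapped between T1, T2 and T3. The 5 markers of the oligodendrocyte lineage, all with counts at every time point, summed to 984 to 1358 CPM at T0, 1328 to 1489 at T1, 1326 to 1463 at T2 and 1656 to 1708 at T3. The part of either in the rise of Grb10 was not tested. In T3 replicate 1, with Grb10 at 89.5 CPM, neuron markers summed to 2725 CPM and oligodendrocyte lineage markers to 1656 CPM. In T3 replicate 4, with Grb10 at 21.8 CPM, these sums were 1696 and 1708 CPM.

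From T1 to T2, edgeR gave Grb10 a log2 fold change of 1.40 (SE 0.40, adjusted p = 0.189), and from T2 to T3 of 1.15 (SE 0.41, adjusted p = 0.196). Neither passed the threshold. Without T1 replicate 2, the T1 library with most Grb10, the first step was 2.17 (adjusted p = 0.0185, edgeR). The second step depended on which T3 library was kept, with a log2 fold change of 1.82 on T3 replicate 1 alone (adjusted p = 0.000353, edgeR) and -0.20 on T3 replicate 4 alone (adjusted p = 0.454, edgeR).

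**Figure D2:**
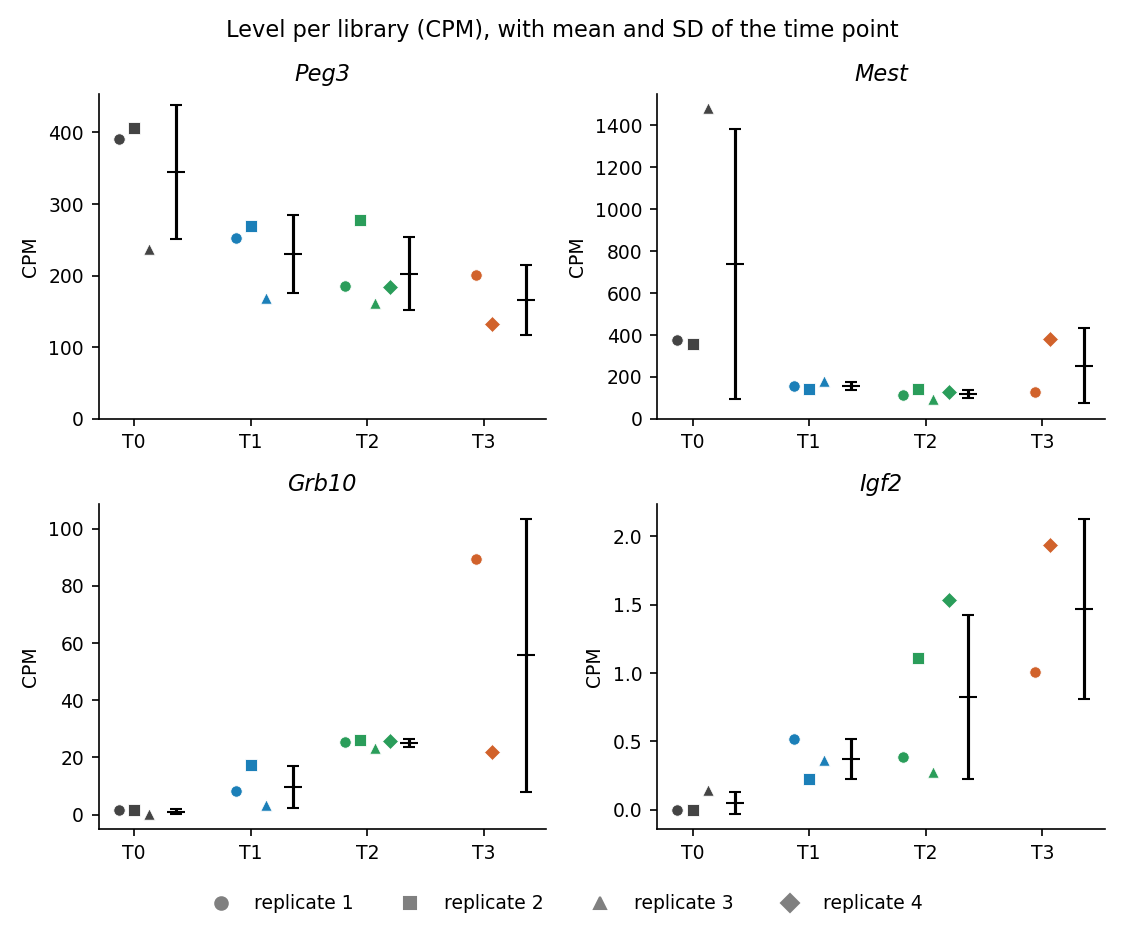
Level of Peg3, Mest, Grb10 and Igf2 in CPM (vertical axis, linear, a scale of its own for each gene) at T0, T1, T2 and T3, with a symbol for each replicate number, and the mean and SD of the time point in black. T0 replicate 3 is the lowest T0 library for Peg3 and Grb10 and, at 1482 CPM, the highest library of all for Mest, and for Grb10 the 4 T2 libraries lie between 23.2 and 26.0 CPM.

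Mest was lower in every T1 and T2 library than in any T0 library. It encodes a membrane protein of the endoplasmic reticulum that is made from the paternal copy in most embryonic tissues. It lies at chr6:30673547-30698457 (plus strand, NCBIM37), and its last 904 bases overlap Copg2, a coatomer gene on the opposite strand. Without a stated strand setting the reads in those bases cannot be assigned to one or the other. Copg2 itself went from 103 ± 4.14 CPM (T0, SD, n = 3) to 74.1 ± 3.58 CPM (T3, SD, n = 2). Mest counts were 4986, 5113 and 21014 in T0 replicates 1 to 3, and 1802, 1897 and 2950 in T1 replicates 1 to 3. They were 1191, 1541, 1046 and 2070 in T2 replicates 1 to 4, and 1512 and 3550 in T3 replicates 1 and 4. T0 replicate 3 stood far above all others, at 1482 CPM or 4.06 times the mean of T0 replicates 1 and 2 (365 ± 12.2 CPM, SD, n = 2). The means of T0, T1, T2 and T3 were 738 ± 645, 159 ± 19.3, 120 ± 20.2 and 254 ± 181 CPM (SD over 3, 3, 4 and 2 libraries).

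The edgeR log2 fold change of Mest against T0 was -2.22 at T1 (SE 0.57, adjusted p = 0.0258) and -2.61 at T2 (SE 0.49, adjusted p = 0.00341). With T0 replicate 3 left out it was -1.20 at T1 (adjusted p = 3.12e-05) and -1.59 at T2 (adjusted p = 9.85e-06, edgeR), so the fall was smaller by about 1 on the log2 scale and passed the test more clearly. The T2 call was kept in all 17 alternatives, and the T1 call was lost in edgeR without T1 replicate 1 (adjusted p = 0.0951), T1 replicate 2 (0.106) or T1 replicate 3 (0.0849), and in limma on log2(FPKM + 1) (0.0585). At T3 the change was -1.52 (SE 0.82, adjusted p = 0.296, edgeR), and -0.51 without T0 replicate 3. T3 replicate 4, at 382 CPM, was as high as T0 replicates 1 and 2 (374 and 357 CPM), while T3 replicate 1, at 127 CPM, lay within the T2 range of 95.2 to 143 CPM. The summed astrocyte markers were lowest in T0 replicate 3, at 735 CPM against 1674 and 1737 CPM in the other T0 libraries, and their part in the Mest level of that library was not tested.

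From T1 to T2 the edgeR log2 fold change of Mest was -0.40 (SE 0.13, adjusted p = 0.254), and from T2 to T3 it was 1.09 (SE 0.35, adjusted p = 0.166). Without T3 replicate 1 the latter was 1.68 (adjusted p = 0.00239), and without T3 replicate 4 it was 0.07 (edgeR).

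Peg3 was lower at T2 than at T0, and its mean was lower at each later time point than at the one before. Its product is a large zinc finger protein made from the paternal copy and abundant in embryonic brain. It lies at chr7:6656603-6683132 (minus strand, NCBIM37), with no other annotated gene across it. Its counts were 5215, 5818 and 3360 in T0 replicates 1 to 3, and 2936, 3607 and 2769 in T1 replicates 1 to 3. They were 1949, 3004, 1785 and 3004 in T2 replicates 1 to 4, and 2403 and 1226 in T3 replicates 1 and 4. T0 replicate 3 was again apart, here at 237 CPM against 399 ± 10.4 CPM in the other 2 (SD, n = 2), and with it T0 overlapped T1 and T2 in CPM. The summed astrocyte markers were at 1674, 1737 and 735 CPM in T0 replicates 1 to 3, 1033 to 1194 at T1, 1063 to 1353 at T2 and 869 to 928 at T3, and their part in the Peg3 levels was not tested. Both T3 libraries, at 201 and 132 CPM, lay below every T0 library. At T0, T1, T2 and T3 the mean level was 345 ± 93.6, 230 ± 54.0, 203 ± 51.3 and 167 ± 49.0 CPM (SD over 3, 3, 4 and 2 libraries).

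The edgeR log2 fold change of Peg3 against T0 was -0.59 at T1 (SE 0.26, adjusted p = 0.123), -0.75 at T2 (SE 0.24, adjusted p = 0.0319) and -1.03 at T3 (SE 0.32, adjusted p = 0.111). Only the change at T2 passed the threshold. Leaving out T0 replicate 3, all 3 did, with -0.79 (adjusted p = 0.00466), -0.96 (0.00144) and -1.24 (0.0256, edgeR). On the libraries numbered 1 and 2 alone the change at T1 was -0.61 (adjusted p = 2.26e-06, edgeR). The T2 call was lost in edgeR without T0 replicate 1 (adjusted p = 0.0855), T0 replicate 2 (0.0940), T2 replicate 1 (0.0766), T2 replicate 3 (0.0850) or T2 replicate 4 (0.0794). From T1 to T2 it was -0.18 (SE 0.20, adjusted p = 0.795) and from T2 to T3 -0.29 (SE 0.24, adjusted p = 0.605, edgeR), both within the spread of the libraries.

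**Figure D3:**
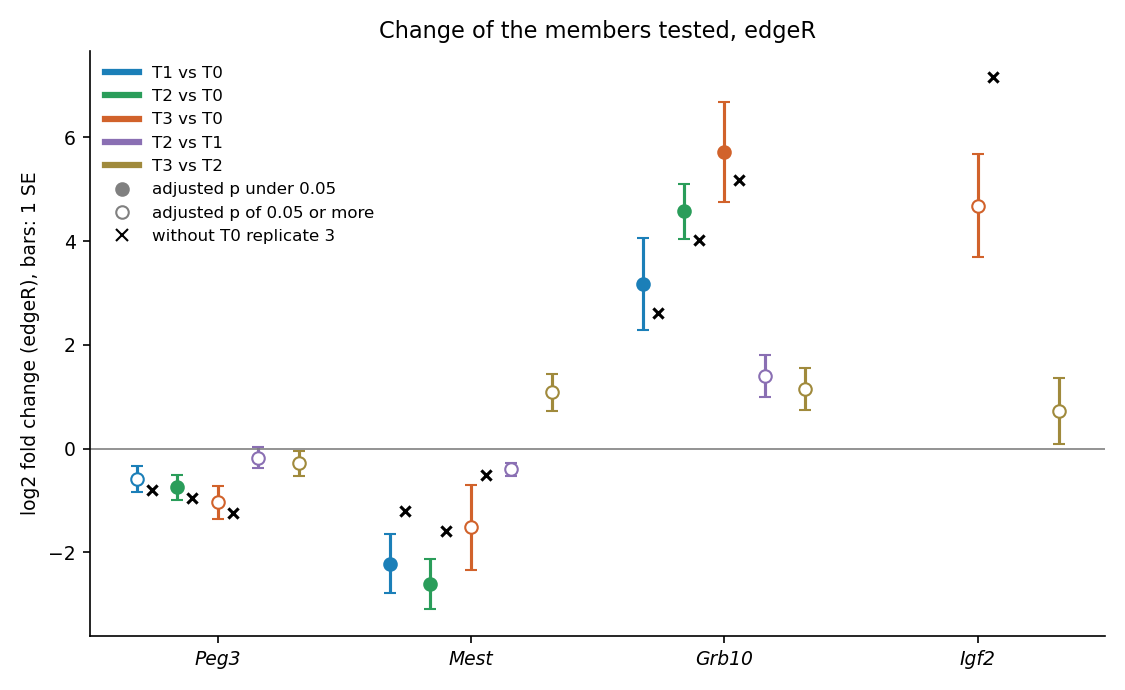
The edgeR log2 fold change (vertical axis, bars 1 SE) of the 4 genes that could be tested, in 5 comparisons of time points given by colour. Filled points had an adjusted p under 0.05, and crosses give the value without T0 replicate 3: for Mest the crosses lie nearer to 0, for Peg3 further from it, and for Grb10 they are 2.61, 4.02 and 5.18. The values of Igf2 against T0, where no library exceeded 2 counts, depend on the prior count of the fit and are no measure of the fold.

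Between neighbouring time points, edgeR called 0 of 3 genes from T1 to T2 and 0 of 4 from T2 to T3, with 2 genes at an unadjusted p under 0.05 in each (Mest and Grb10). DESeq2 called 0 and 1 (Mest, adjusted p = 0.0276) of them, and limma on log2(FPKM + 1) called 0 and 0. In these comparisons few genes of any kind passed: from T1 to T2 0.0565% of 12382 genes were lower and 0.573% higher, and from T2 to T3 0.691% of 12599 were lower and 0.5% higher.

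Igf2 was at the edge of detection. In CPM every later library lay above every T0 library, but in part within the floor. T1 replicate 2 and T2 replicate 3 held 3 counts, and T0 replicate 3 held 2. It lies at chr7:149836673-149852721 (minus strand, NCBIM37) and shares 7124 bases with Igf2as on the opposite strand, which had 10 counts over all libraries. Its counts were 0, 0 and 2 in T0 replicates 1 to 3, and 6, 3 and 6 in T1 replicates 1 to 3. They were 4, 12, 3 and 25 in T2 replicates 1 to 4, and 12 and 18 in T3 replicates 1 and 4. Because no T0 library exceeded 3 counts, no measured fold against T0 is given. Set against 3 counts in each T0 library, the mean level was 1.74 times as high at T1, 4.01 times at T2 and 7.28 times at T3. These ratios are no strict lower bounds, since T0 replicate 3 held 2 reads and the T1 counts were themselves near 3. The means were 0.0470 ± 0.0814, 0.369 ± 0.147, 0.825 ± 0.602 and 1.47 ± 0.659 CPM at T0, T1, T2 and T3 (SD over 3, 3, 4 and 2 libraries). The T1 libraries overlapped those of T2, and T2 those of T3. From T2 to T3 the edgeR log2 fold change was 0.73 (SE 0.64, adjusted p = 0.637). Igf2 entered the comparison of T3 with T0 through its T3 counts, and that comparison did not pass in edgeR (adjusted p = 0.0573). It passed in DESeq2 (0.0128) and, in edgeR, with no filter on low counts (0.0337). Further passes in edgeR were 1 fit of all 12 libraries (0.00534) and the fit without T0 replicate 3 (0.0291). With T0 at no more than 2 counts, these results are not used as support for a rise. Igf2 is also made by leptomeninges, endothelium and choroid plexus in brain. Leptomeningeal and fibroblast markers summed to 0.564 to 1.35 CPM at T0, 0.345 to 0.549 at T1, 0.0910 to 0.614 at T2 and 0.335 to 0.969 at T3, with Col1a2, Lum and Pdgfrb at 0 at T0 and T3. Endothelial markers summed to 0.900 to 1.41 CPM at T0, 1.42 to 2.87 at T1, 1.76 to 2.33 at T2 and 1.93 to 2.37 at T3, with Cdh5 at 0 at T1 and T3. Choroid plexus markers summed to 0.150 to 0.419 CPM at T0, 0.822 to 1.55 at T1, 1.11 to 2.40 at T2 and 0.419 to 0.431 at T3. At each time point 3 of these 4 markers had no more than 3 counts in every library. Ttr, Kl and Otx2 were at 0 at T0 and T1, where only Folr1 was counted, and Kl and Otx2 were at 0 at T3. The part of such cells in the Igf2 reads was not tested.

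H19, which neighbours Igf2 at chr7:149761434-149764048 (minus strand, NCBIM37) and is expressed from the maternal copy, had 10 counts in all 12 libraries together. It had 0 counts in all 3 T0 libraries and in T1 replicates 1 and 2, and 2 in T1 replicate 3. T2 replicates 1 to 4 held 2, 3, 0 and 1 counts, and each T3 library 1. No difference between time points was detectable at this depth.

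Cdkn1c, at chr7:150644255-150646955 (minus strand, NCBIM37), had 1 count in each of T0 replicate 3, T1 replicate 2 and T3 replicates 1 and 4, and 0 elsewhere. Its product p57 is known as a brake on the cell cycle in differentiating neural progenitors. The other inhibitors of the same family were counted in every library. Cdkn1b (p27) was at 158 ± 30.6, 140 ± 3.78, 121 ± 6.56 and 108 ± 8.58 CPM at T0, T1, T2 and T3 (SD over 3, 3, 4 and 2 libraries), with no call against T0. Cdkn1a (p21) was at 43.8 ± 14.4, 23.7 ± 5.19, 44.1 ± 3.34 and 134 ± 88.3 CPM. It was lower at T1 than at T0 (log2 fold change -0.89, adjusted p = 0.0418, edgeR) and higher at T2 than at T1 (0.91, adjusted p = 0.0272, edgeR), calls that 9 of 16 and 8 of 17 alternatives kept. Of the 10 inhibitors, cyclins and kinases listed as partners of p57, all were tested, and 6 were lower and 0 higher at T1, 5 lower and 1 higher at T2 and 0 changed at T3 in edgeR, where 4 lower and 2 higher had an unadjusted p under 0.05 and DESeq2 called 2 lower and 2 higher, with medians of -1.16, -0.94 and -0.45. Without T0 replicate 3 the counts were 7 lower and 2 higher at T1, 6 and 2 at T2, and 2 and 2 at T3. From T1 to T2 1 was higher, and 3 with the replicate number as a block. From T2 to T3 2 were higher. Of all genes, 16.8% (T1), 21.8% (T2) and 1.41% (T3) were called lower than at T0, and 15.1%, 21.4% and 3.31% higher. From T1 to T2 0.573% of all genes were called higher, and from T2 to T3 0.5%.

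Dlk1 and Meg3 lie next to each other on chromosome 12, at chr12:110691033-110701546 and chr12:110779211-110809936 (plus strand, NCBIM37). Dlk1 had 1 count in T2 replicate 4 and 1 in T3 replicate 4. Meg3 had 1 count in T0 replicate 3, 1 in T2 replicate 3 and 3 in T2 replicate 4. The other imprinted genes of this cluster were as low, with Rtl1 and Rian at no more than 1 count and Mirg and Dio3 at 0 in every library. Genes flanking the cluster were counted, with Begain at 18 to 64 counts and the tryptophanyl-tRNA synthetase gene Wars at 1124 to 2174 counts per library.

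Ndn, a gene of 1 exon at chr7:69493163-69494814 (plus strand, NCBIM37), had 1 count, in T2 replicate 4. Necdin is known as a marker of postmitotic neurons. Of the imprinted genes around it, Magel2 had at most 1 count and Snurf 0, whereas Mkrn3 had 135 to 312 counts, Peg12 229 to 953 and the ubiquitin ligase gene Ube3a 788 to 1747 per library. Snrpn had 24 to 180 counts and shares its transcript with Snurf, so that its reads may not have been assigned.

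Plagl1, at chr10:12810497-12851500 (plus strand, NCBIM37), had 0 counts in all 12 libraries and was listed at 0 in the FPKM table for all of them. The neighbouring gene Phactr2 had 202 to 377 counts. The same held within the Cdkn1c domain, where Phlda2 was at 0 and Kcnq1 at no more than 2 counts, while the noncoding RNA Kcnq1ot1 had 110 to 821 and the tetraspanin gene Cd81 7984 to 19081 counts. Each of the 6 genes at no more than 3 counts thus lay near other listed genes above 3 counts. For Dlk1, Meg3 and Plagl1 these were only flanking or neighbouring genes.

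**Figure D4:**
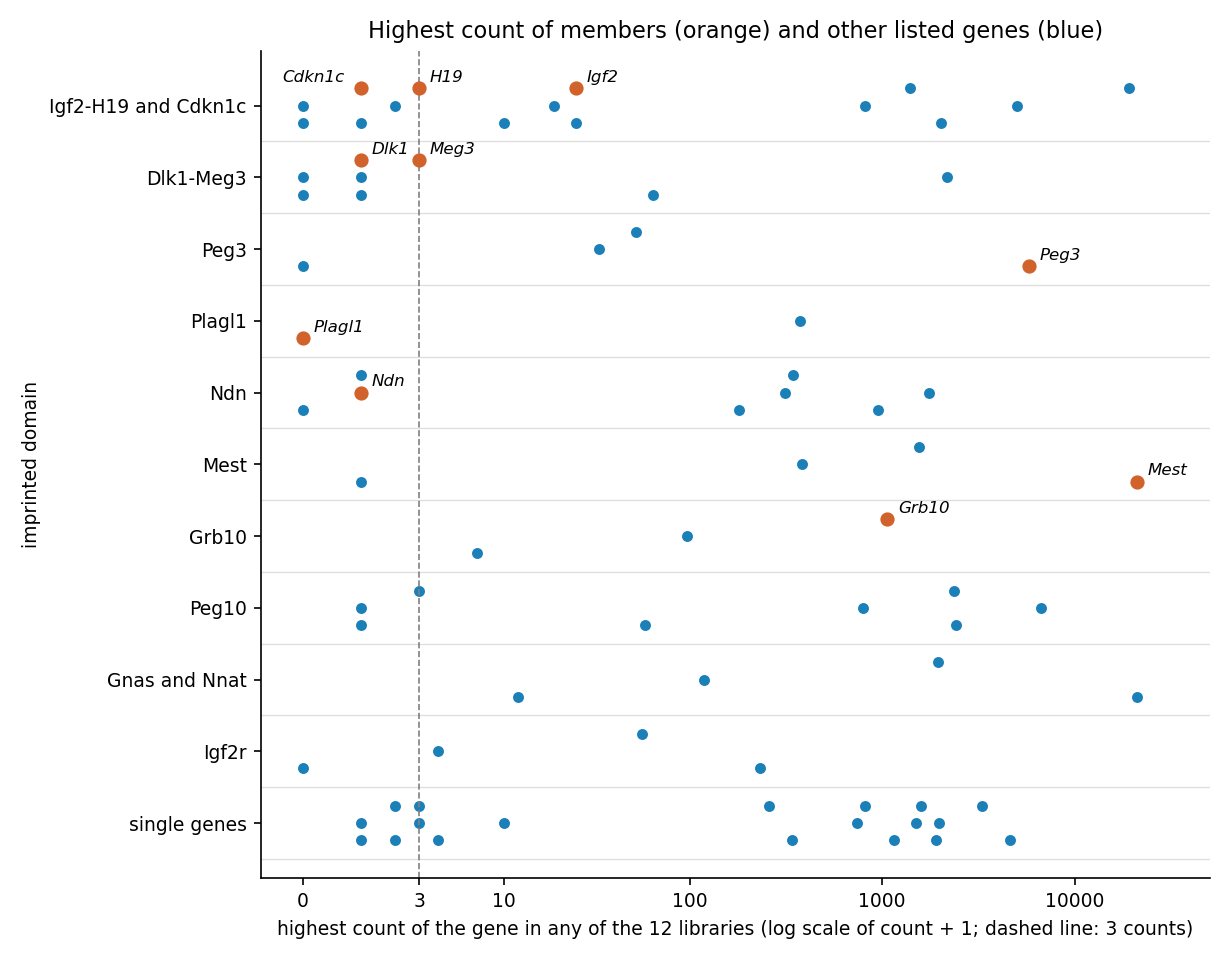
Highest count in any of the 12 libraries (horizontal axis, log scale of count + 1) for the 10 genes (orange, named) and for 69 other genes of imprinted domains and their borders (blue), by domain (rows; points of a row are spread vertically for legibility). In the row of Dlk1 and Meg3 4 other genes lie at or below 1 count, and the row of Ndn holds 2 others at or below 1 count and 5 at 180 or more.

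Per length of transcript, Mest stood above Peg3 and Peg3 above Grb10 in all 12 libraries. Mean FPKM at T0 was 323 ± 288 for Mest, 49.5 ± 10.2 for Peg3, 0.444 ± 0.488 for Grb10 and 0.0137 ± 0.0238 for Igf2 (SD, n = 3). For Mest this mean and the rank below include T0 replicate 3, at 655 FPKM against 158 and 155 in T0 replicates 1 and 2. At T3 it was 72.4 ± 39.6 for Mest, 22.5 ± 6.16 for Peg3, 10.5 ± 10.6 for Grb10 and 0.324 ± 0.0670 for Igf2 (SD, n = 2). Among the 21617 genes named in both tables, Mest had a higher mean FPKM than 99.3% at T0 and 91.0% at T2, Peg3 than 90.0% and 85.1%, and Grb10 than 44.9% and 57.7%. In the FPKM table the Mest entry extends to position 30846794 and so spans Copg2. FPKM and counts ranked the T2 libraries differently for Igf2, with the highest FPKM, 0.380, in T2 replicate 1, which had 4 reads. Mest was above Peg3 by more than the spread between libraries at T1 (65.8 ± 10.1 against 32.9 ± 6.31 FPKM, SD, n = 3) and T2 (44.3 ± 7.82 against 28.4 ± 5.73 FPKM, SD, n = 4), and at T0 by less than the SD of Mest.

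The genes whose log2 CPM followed Peg3, Mest and Grb10 most closely over the 12 libraries were named from 12200 genes, as a description without a test. They were Celsr2 (Pearson r = 0.98) and Cep250 (0.97) for Peg3, Rap2c (0.99) and Dpp3 (0.99) for Mest, and Atxn1 (0.99) and Opcml (0.99) for Grb10. These correlations share the time points and the libraries of all genes, T0 replicate 3 included. Atxn1 went from 0.970 CPM at T0 to 15.9 at T3 and Opcml from 0.777 to 21.8, and Celsr2 fell in mean from 184 to 96.4 CPM. Igf2 and the other 6 genes were too low for this comparison.

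The other imprinted genes and their border genes are a list of 71, of which 69 had an entry in the count tables. Of them 22 stayed at 3 counts or fewer everywhere. At T1 3 were lower and 8 higher of 40 tested, at T2 6 lower and 11 higher of 40, and at T3 0 lower and 2 higher of 41 in edgeR, with median log2 fold changes of 0.07, 0.13 and 0.18. Over all genes the shares lower and higher were 16.8% and 15.1% at T1, 21.8% and 21.4% at T2, and 1.41% and 3.31% at T3, and the counts of the list are a description beside them. At T3 6 had an unadjusted p under 0.05 in the lower and 10 in the higher direction, and DESeq2 called 2 lower and 6 higher. Between T1 and T2 and between T2 and T3 edgeR called 0 of 39, with 2 lower and 4 higher, and 7 lower and 4 higher, at an unadjusted p under 0.05 and 1 called higher by DESeq2 in each. With the replicate number as a block, 1 was called higher from T1 to T2. If T0 replicate 3 was left out they were 5 lower and 12 higher at T1, 6 and 12 at T2, and 3 and 8 at T3. The largest falls at T1 were of the phospholipid flippase gene Atp10a (-2.53, SE 0.17, adjusted p = 0.000417), of Igf2r, the receptor that clears IGF2 (-1.55, SE 0.46, adjusted p = 0.0413), and of the retrotransposon-derived gene Peg10 (-1.37, SE 0.38, adjusted p = 0.0335, edgeR). They fell at T2 by 2.61, 1.46 and 1.22 on the log2 scale. T0 replicate 3 weighed on Igf2r and Peg10, whose changes without it were -0.88 and -0.79 at T1, and 9 of 16 alternatives kept each T1 call. The largest rises at T1 were of Blcap (1.60, SE 0.23, adjusted p = 0.00298), of the oxysterol-binding protein gene Osbpl5 (1.45, SE 0.20, adjusted p = 0.00258) and of the splicing protein gene Snrpn (1.40, SE 0.38, adjusted p = 0.0309, edgeR), with 1.57, 1.36 and 1.59 at T2. These rises too lean on T0 replicate 3, the lowest T0 library for each. The T0 ranges were 25.5 to 46.6, 21.6 to 35.9 and 1.69 to 5.23 CPM. Their changes without that library are not given here. At T3 edgeR called Cobl (3.45, SE 0.64, adjusted p = 0.0436), the actin nucleator gene next to Grb10, and Tssc4 (1.39, SE 0.14, adjusted p = 0.0158), each kept in 6 of 13 alternatives. Cobl had 3 to 13 counts in the T0 libraries, 17 to 35 in T2 and 36 to 97 in T3. It rose at T2 by a log2 fold change of 1.96 (adjusted p = 0.00870, edgeR). T0 replicate 3 was the lowest T0 library for Cobl as well.

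The partners of IGF signalling are given to show what else of the pathway was present. Of 25 genes, 6 stayed at 3 counts or fewer everywhere, among them the growth factor Igf1 with at most 2. The receptor gene Igf1r was well counted, at 220 ± 37.4, 257 ± 29.0, 219 ± 57.7 and 160 ± 27.5 CPM at T0, T1, T2 and T3 (SD over 3, 3, 4 and 2 libraries), and was not called against T0. In edgeR 6 of 17 tested were lower and 1 higher at T1, and 6 of 19 lower and 2 higher at T2. The 19 include Igfbp7, which entered through the T2 libraries, with 7 to 22 counts there and 1 to 2 in T0. Among genes of a mean of at least 1 CPM, 6 were lower and 1 higher at T2. At T3 1 of 18 was lower and 1 higher. The medians at T1, T2 and T3 were -0.28, -0.08 and -0.22, with Igfbp7 among the genes of T2 and T3. Of all genes, 16.8% (T1), 21.8% (T2) and 1.41% (T3) were called lower, and 15.1%, 21.4% and 3.31% higher. Without T0 replicate 3 the counts of the list were 7 lower and 4 higher, 6 and 4, and 1 and 2. Igfbp2, a secreted protein that binds IGFs, fell by 1.92 at T1 and 1.60 at T2 on the log2 scale (adjusted p = 0.000536 and 7.53e-05, edgeR), from 10523 to 14059 counts in the T0 libraries to 2491 to 4283 in T1. The adaptor gene Shc1 fell by 1.06 at both time points (adjusted p = 0.00429 and 0.00113, edgeR). The receptor substrate gene Irs4 rose by 1.46 and 1.54 (adjusted p = 0.0374 and 0.0125, edgeR), the first of these kept in 9 of 16 alternatives. T0 replicate 3 was the lowest T0 library for Irs4, in a T0 range of 2.12 to 6.45 CPM. At T3 Igf2bp2, which encodes an RNA-binding protein known to bind Igf2 mRNA, was lower by a log2 fold change of -1.22 (adjusted p = 0.0222), and Igfbp7 was called higher (adjusted p = 0.0428, edgeR). Igfbp7 entered this comparison through the T3 libraries, which had 20 and 142 counts. Each T0 library had 1 to 2 counts, which is under the floor, so that no fold is given. These T3 calls were kept in 8 and 6 of 13 alternatives.

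Of 11 genes listed as keepers of imprints, 9 were tested, and in edgeR 4 were lower and 1 higher at T1, 4 lower and 1 higher at T2 and 1 lower and 0 higher at T3, beside the same shares of all genes. The 4 lower ones at T1 and T2 were the maintenance methyltransferase gene Dnmt1, its partner Uhrf1, Trim28 and Ctcf. The higher one was Zfp57, a zinc finger gene whose product recognises methylated imprinting control regions, with 21.3 ± 6.86, 61.5 ± 7.54, 71.8 ± 10.6 and 50.8 ± 17.5 CPM at T0, T1, T2 and T3 (SD over 3, 3, 4 and 2 libraries). The edgeR log2 fold change of Zfp57 was 1.52 at T1 (adjusted p = 0.00584) and 1.77 at T2 (adjusted p = 0.000756). It was 1.28 and 1.52 without T0 replicate 3, both past the threshold. The counts of the list without that library were 4 lower and 2 higher at T1, 4 and 1 at T2, and 1 and 0 at T3.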

How the data were processed

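RNA was extracted with Trizol, made into TruSeq RNA v2 libraries and sequenced on a HiScanSQ. Per the labels' processing notes the authors used CASAVA 1.8, TopHat 2.0.6 with Bowtie 0.12.7.0 on mm9, HTSeq 0.6.0 and DESeq2 1.0.0. The strand setting is not given in the sources used here. The authors deposited a raw count per gene and library, and a table of FPKM values for all samples, with 0 columns of other samples. One FPKM column, of T3 replicate 4, has a further 2 in its name that nothing explains. Entries that name no gene were left out: reads on no gene (13.3% to 24.1% of uniquely aligned reads), reads on several genes (0.680% to 0.903%) and non-unique alignments (26.0% to 39.0% of all).

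Groups were taken from the labels. The study's text adds the 10 days of T3 to those of T2, and the growth protocol of the labels gives 3 days in each medium. The times of the sample titles were used here. Each comparison was fitted on the counts of its 2 groups with the edgeR 4.0.16 quasi-likelihood test in R 4.3.3 (TMM, filterByExpr, Benjamini-Hochberg over all genes tested, threshold 0.05). The SE is the log2 fold change divided by the square root of F. The floor was 3 counts per library. The fits were tested on simulated counts. Alternatives were DESeq2 1.42.0, RLE size factors, no filter or a mean of at least 1 CPM, 1 fit of all 12 libraries, limma 3.58.1 on log2(FPKM + 1) or log2(FPKM + 0.1) with genes of a mean FPKM of at least 0.5 or no filter, leaving out each library, and the replicate number as a block. The libraries numbered 1 and 2 alone were added after seeing the data. Likeness is Pearson's r of log2 CPM with a prior count of 2, over genes of at least 1 CPM.

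Same-numbered libraries of T1 and T2 deviated from their group means together (r = 0.18 to 0.40 over 3 pairs). The highest r was between different numbers, 0.43 for T1 replicate 3 with T2 replicate 4, so whether the numbers pair the samples is uncertain. For same numbers the r was -0.02 to 0.13 for T0 and T1 and -0.17 to 0.00 for T0 and T2. It was -0.05 to 0.27 for the 2 pairs of T2 and T3, and 0.45 for the 1 pair of T0 and T3.

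The genes and the lists were chosen with earlier results of these data known. The other genes named with values are the 3 largest rises and falls past the threshold at a mean log2 CPM of at least 1 in each list and comparison with T0. Neighbours in imprinted domains, flanking genes, Igf1, Igf1r, Copg2, Zfp57 and the other keepers of imprints were named after their values were seen, as was Cobl at T2. Positions are of NCBIM37 (mm9) with the GENCODE vM1 annotation, and sequences of RefSeq on GRCm38.p6, and the builds were not mixed. Parental copies and methylation were not analysed here.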

Additional observations from a re-analysis of the deposited data

How the results depend on the processing

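Of 256 values of log2 fold change under alternatives, for 4 genes in 5 comparisons, 214 kept their direction and their side of the threshold, 25 lost it, 16 passed it newly and 1 turned its sign: Grb10 from T2 to T3 without T3 replicate 1, -0.20 (1.82 without T3 replicate 4). The number of genes called was 2 at T1 against T0 and became 0 with limma on FPKM in its 3 settings, and 0 to 3 on leaving out 1 library. At T2 against T0 it was 3 and stayed within 2 to 4. At T3 against T0 it was 1 and became 3 with DESeq2, 2 with no filter, 3 in 1 fit of all 12 libraries, 0 with limma on FPKM in its 3 settings, and 0 to 3 on leaving out 1 library (3 without T0 replicate 3, and 0 without any of the other 4). Igf2, which entered through its T3 counts, is in each of these T3 counts above 1 and is not used as support. It also makes up 4 of the 16 values that passed newly. From T1 to T2 the number of genes called was 0, and 0 to 1 on leaving out 1 library. From T2 to T3 it was 0 and became 1 with DESeq2, 2 with no filter, and 0 to 1 on leaving out 1 library. The cause of these differences was not tested.

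With the replicate number as a block, the count stayed at 0 from T1 to T2, where same-numbered libraries deviated together. In the lists the block gave 3 higher in place of 1 among partners of p57 and 1 in place of 0 among other imprinted genes. Between T0 and T1 the numbers did not pair the samples, and the block called Peg3 (-0.57, adjusted p = 0.0219, edgeR), so that the count was 3. It changed no other call of these genes (3 at T2 against T0, 0 from T2 to T3). No paired analysis was possible for T3 against T0 because the groups share only replicate number 1. Among the lists, other imprinted genes ranged from 1 to 9 lower and 3 to 14 higher at T1, 1 to 8 and 8 to 15 at T2, and 0 to 6 and 0 to 11 at T3. IGF partners ranged from 3 to 8 lower and 0 to 5 higher at T1, 4 to 7 and 1 to 4 at T2, and 0 to 3 and 0 to 2 at T3. Partners of p57 ranged from 4 to 7 lower and 0 to 2 higher at T1, 3 to 7 and 0 to 3 at T2, and 0 to 4 and 0 to 2 at T3, and keepers of imprints from 2 to 4 and 1 to 3, 4 and 1 to 2, and 0 to 3 and 0 to 1. From T1 to T2 no list had more than 1 lower or 3 higher. Depth limits the 6 genes at no more than 3 counts, since a library with 0 reads of a gene still allows a level of up to 0.180 to 0.337 CPM.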
